A study of Homo sapiens with 16 samples.

Results

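Serine synthesis and one-carbon metabolism were followed through 10 genes across bulk RNA-Seq of Wnt-reporter sublines of triple-negative breast cancer, out of the 57820 genes in the deposited tables. The set was chosen by the measured values of *ALDH1L2*, which stood out in the MDA-MB-436 reporter comparison, and was filled with its pathway members and its neighbours in the ATF4 response: *PHGDH*, *PSAT1*, *PSPH*, *SHMT1*, *SHMT2*, *MTHFD2*, *MTHFD1L*, *ASNS* and *ATF4*. In every comparison that uses MDA-MB-436 cells, *ALDH1L2* is therefore described without a test, and counts there are over the other 9 genes. All 10 genes had enough counts to be tested in both serum conditions.

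Serine is made from 3-phosphoglycerate, an intermediate of glycolysis, in consecutive steps catalysed by PHGDH, PSAT1 and PSPH. SHMT1 in the cytosol and SHMT2 in mitochondria then move a carbon from serine onto tetrahydrofolate, leaving glycine. Inside mitochondria, MTHFD2 oxidises this carbon unit, MTHFD1L releases it as formate for use in the cytosol, and ALDH1L2 instead oxidises it to CO2 with the production of NADPH. ATF4 is the transcription factor of the amino acid and integrated stress responses, and *ASNS*, which encodes asparagine synthetase, is a classical target of it, as are several genes of the serine pathway.

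Both cell lines carry the 7TGP plasmid, in which repeated TCF binding sites drive eGFP, and had been selected with puromycin and sorted repeatedly by eGFP into reporter-negative (NEG) and reporter-positive (POS) pools. Each reporter state of a line is 1 such pool, so that reporter state and other differences between the pools cannot be told apart. Each line and reporter state was grown in low serum (0.5% FBS, harvested on day 3) and in standard serum (10% FBS, harvested on day 6), with 2 biological replicates in each of the 8 groups, which makes 16 libraries. The methods of the study give different base media for the lines (the labels give 1), so that line and medium cannot be told apart, and different RNA selection, kits and sequencers for the serum conditions, so that serum, days in culture and library preparation cannot be told apart.

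The total count ranged from 27918418 to 32667756 per library in low serum and from 31827130 to 46044073 in standard serum, and replicates correlated with r of 0.992 to 0.997 across genes. The libraries held the markers of their labelled cells: *VIM* was abundant, *ESR1* and *PGR* reached at most 1.03 CPM (counts scaled to library size with TMM factors), and *CDKN2A* reached at most 0.30 CPM in MDA-MB-231. The 3 leukocyte markers reached a summed level of at most 0.446 CPM in MDA-MB-436. They summed in MDA-MB-231 to 2.07 to 2.57 CPM in NEG and 4.80 to 5.12 CPM in POS in low serum. In standard serum the sums were 7.57 to 8.58 CPM in NEG and about 10.1 CPM in POS. Nearly all of this was *PTPRC*, at 2.07 to 4.96 CPM in low serum and 7.47 to 10.1 CPM in standard serum. *CD68* reached at most 0.227 CPM and *CD3E* at most 0.0749 CPM there. The part of these markers in the reporter comparisons was not tested. In low serum the most abundant gene alone took between 5.77% and 20.6% of all TPM (transcript abundance per length and library), more in POS than in NEG libraries of either line, and at most 2.23% in standard serum.

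The promoter windows of the genes are shown first. They were searched for an ATF4 site because the set includes neighbours in the ATF4 response. Whether the genes follow *ATF4* was not tested. Promoters came from RefSeq (GRCh38.p14) and span 250 bases before and 50 bases after an annotated start. Of the 10 genes, 7 had 1 or more entries, 12 in all, and *ALDH1L2*, *PSPH* and *SHMT2* had none. The C/EBP-ATF response element, searched as TGATGNAA on both strands, was found in *ASNS* and *MTHFD1L*, 2 of the 7 genes. Counted by promoter these are 4 of the 12 windows, 3 of which are overlapping windows around 1 *MTHFD1L* site, against 3.62% of 35116 promoters. The 250 bases before the start of *ASNS* (minus strand, chr7:97872409-97872658) hold it 68 bases upstream, in capitals. Those before *PSAT1* (plus strand, chr9:78296875-78297124), the gene with the next largest serum difference, hold no match.
ASNS: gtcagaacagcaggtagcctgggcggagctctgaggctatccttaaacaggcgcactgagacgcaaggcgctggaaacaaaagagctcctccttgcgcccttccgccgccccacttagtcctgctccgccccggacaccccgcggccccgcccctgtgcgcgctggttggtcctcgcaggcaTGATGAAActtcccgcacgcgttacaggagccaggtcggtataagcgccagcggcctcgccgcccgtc
PSAT1: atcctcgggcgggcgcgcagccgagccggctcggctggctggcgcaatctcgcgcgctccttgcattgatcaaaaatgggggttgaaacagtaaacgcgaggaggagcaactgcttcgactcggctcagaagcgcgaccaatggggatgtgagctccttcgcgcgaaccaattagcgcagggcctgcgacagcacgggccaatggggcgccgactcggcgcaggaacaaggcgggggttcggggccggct

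The element in *MTHFD1L* lies 129 bases before, 90 bases before or 25 bases after the start, depending on which of its annotated starts is taken. For comparison, 9 of 27 other genes on a list of ATF4 amino acid response targets that had a promoter entry also held a match (9 of 42 promoters), among them *CEBPG*, a dimer partner of ATF4, and *SLC1A5*, a glutamine transporter. Each window below is on the gene's own strand, with the match in capitals (chr6:150866349-150866372, chr19:33374063-33374086 and chr19:46784896-46784919, in this order).
MTHFD1L: gccggctcTGATGCAAtcgcgccg
CEBPG: gcggcgtcTGATGCAAcctgccgg
SLC1A5: gaagtggcTGATGCAAgctgtcca

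An E-box (CACGTG), which MYC and USF factors bind, was found in 5 of the 12 windows, all of *ATF4* or *MTHFD1L* and from 1 site in each gene, against 7.26% of all promoters. The letters ATCAAAG of the TCF core, which the reporter repeats, were found in none of the 12 windows, against 2.62% of all promoters. Such a result says only that these letters are not in these windows.

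*ALDH1L2* (ENSG00000136010, chromosome 12, 105413562 to 105501421 on GRCh37, the build of the counts) was at the edge of detection in 3 of the 4 sublines. In low serum it had 14 and 16 counts in MDA-MB-231 NEG, 12 and 6 in MDA-MB-231 POS, and 16 and 15 in MDA-MB-436 NEG, against 519 and 499 in MDA-MB-436 POS. In standard serum the counts were 13 and 3, 4 and 6, and 14 and 19, against 3234 and 2165 in MDA-MB-436 POS. All 4 MDA-MB-436 POS libraries thus stood far above the other 12. MDA-MB-436 POS held 17.4 and 18.5 CPM in low serum, then 66.5 and 55.2 CPM in standard serum, and no other library exceeded 0.606 CPM.

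The log2 fold change of *ALDH1L2* between MDA-MB-436 POS and NEG was 5.06 (low serum, SE 0.185) and 7.10 (standard serum, SE 0.208), values given as a description because they chose the gene. Adjusted p-values here come from the quasi-likelihood test of edgeR, adjusted over all genes tested. Within MDA-MB-231, where the test is independent of that choice, the log2 fold change was -0.67 in low serum (SE 0.427, adjusted p = 0.234) and -0.75 in standard serum (SE 0.607, adjusted p = 0.393). At 3 to 16 counts per library a moderate change within MDA-MB-231 was not detectable. Per length, *ALDH1L2* in MDA-MB-436 POS reached a mean of 5.13 TPM (low serum) and 28.6 TPM (standard serum). The other mitochondrial enzymes in the same cells were higher, *MTHFD1L* at 57.1 and 134 TPM and *MTHFD2* at 146 and 452 TPM. *WASHC4*, with up to 5289 counts, and *NOPCHAP1*, with up to 519, overlap *ALDH1L2* on the opposite strand. The kits keep the strand, and which strand setting the count used is not given in the sources used here.

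**Figure D1:**
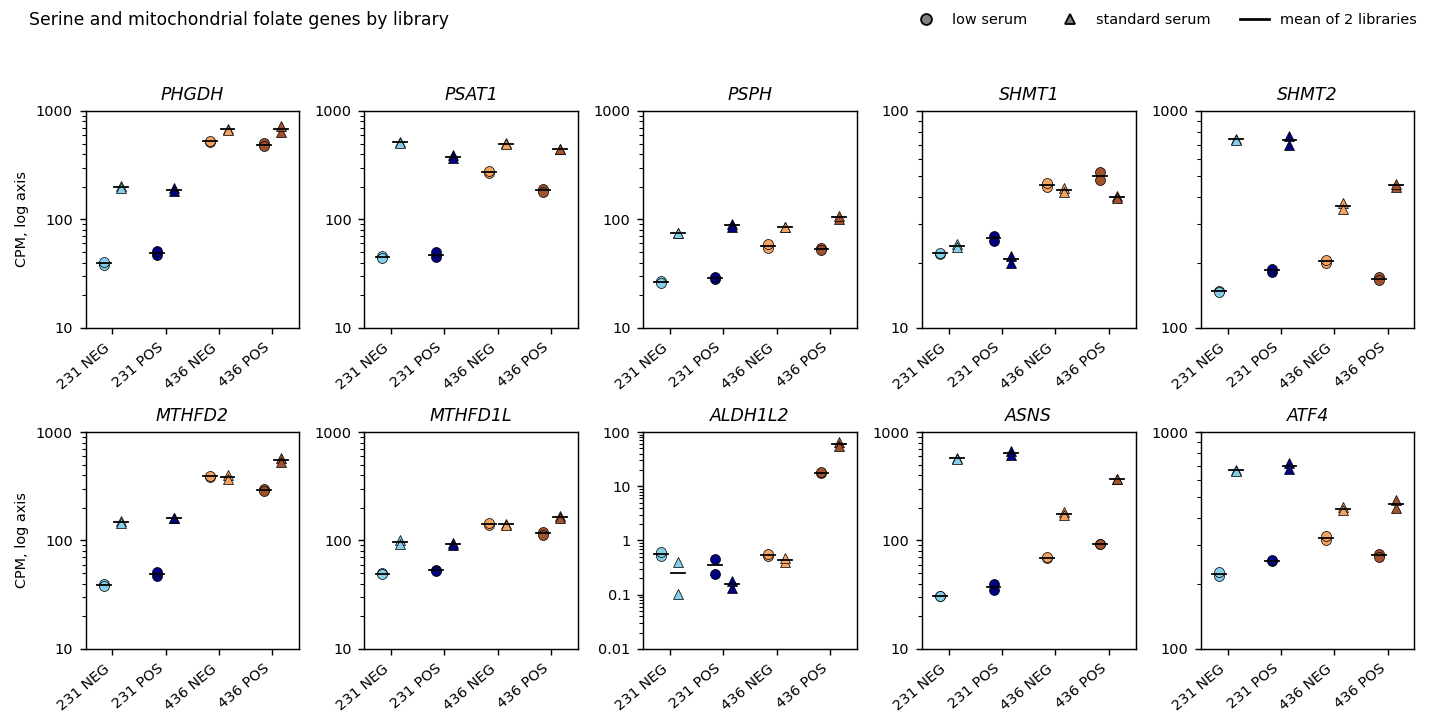
Expression of the 10 genes in each library, as TMM-scaled CPM on log axes whose ranges differ between panels, for the 4 sublines in low serum (circles) and standard serum (triangles), with the mean of the 2 libraries as a bar. *ALDH1L2* lies above 17 CPM in MDA-MB-436 POS and below 1 CPM in every other library, whereas the other genes are present in all 16 libraries and, except *SHMT1*, have their lowest mean in low serum MDA-MB-231 NEG.

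In low serum, the remaining 9 genes were all lower in MDA-MB-231 NEG than in MDA-MB-436 NEG cells. The differences were widest at the entry of the serine pathway and at the mitochondrial oxidation step. *PHGDH*, the first enzyme of serine synthesis, was at 38.3 and 40.7 CPM in MDA-MB-231 NEG and at 518 and 532 CPM in MDA-MB-436 NEG, 13.3-fold apart (log2 difference -3.73, SE 0.0584, adjusted p = 3.54e-39). *MTHFD2* was at 39.7 and 37.7 against 388 and 396 CPM (log2 difference -3.34, SE 0.0569, adjusted p = 6.63e-38), and *PSAT1*, the aminotransferase of the serine pathway, at 45.9 and 44.1 against 267 and 276 CPM (log2 difference -2.59, SE 0.058, adjusted p = 1.02e-33). None of these groups overlapped.

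The formate-releasing enzyme *MTHFD1L* (log2 difference -1.52), *ASNS* (-1.16), *PSPH* (-1.10) and cytosolic *SHMT1* (-1.05) were 2.07- to 2.88-fold lower in MDA-MB-231 NEG, and the differences were smallest for *ATF4* (-0.55) and *SHMT2* (-0.46). A gene was called where its adjusted p was under 0.05 and its log2 fold change reached 1 in size, and 7 of the 9 genes were called, all lower. Among all 16069 genes tested, 41.9% were called and 21.4% were called lower. At an adjusted p under 0.05 alone, 9 of 9 genes passed, all lower, against 39.6% of all genes lower and 39.6% higher. The median over the 9 genes was -1.16, beside a median of 0.01 over all genes tested.

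Standard serum showed another order. *PHGDH* (202 and 194 CPM in MDA-MB-231 NEG against 685 and 673 in MDA-MB-436 NEG) and *MTHFD2* (150 and 146 against 399 and 372) were again lower in MDA-MB-231, with log2 differences of -1.78 (SE 0.0794, adjusted p = 2.69e-13) and -1.38 (SE 0.0752, adjusted p = 5.23e-12). *ASNS* was instead higher in MDA-MB-231 NEG, at 582 and 561 CPM against 181 and 173 (log2 difference 1.69, SE 0.0745, adjusted p = 2.26e-13). Mitochondrial *SHMT2* was also higher there, at 745 and 737 CPM against 376 and 354 (log2 difference 1.02, SE 0.0749, adjusted p = 4.01e-10). *SHMT2* fell just under the fold threshold, to 0.98, without MDA-MB-436 NEG replicate 2.

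*PSAT1* did not differ detectably between the lines in standard serum, with 519 and 508 against 504 and 495 CPM (log2 difference 0.04, SE 0.0702, adjusted p = 0.604). *SHMT1* (-0.85) and *MTHFD1L* (-0.55) were lower in MDA-MB-231 and *ATF4* (0.59) was higher, all past the adjusted p alone, and *PSPH* (-0.18, adjusted p = 0.0353) no longer passed with DESeq2 (0.0549) or without any 1 of the 4 NEG libraries. Of the 9 genes, 2 were called higher and 2 lower, against 46.7% of all 15414 genes called, 21.3% higher and 25.4% lower. At the adjusted p alone, 3 were higher and 5 lower, against 37.3% and 41.4% of all genes. The median over the 9 genes was -0.18, beside -0.09 over all genes.

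**Figure D2:**
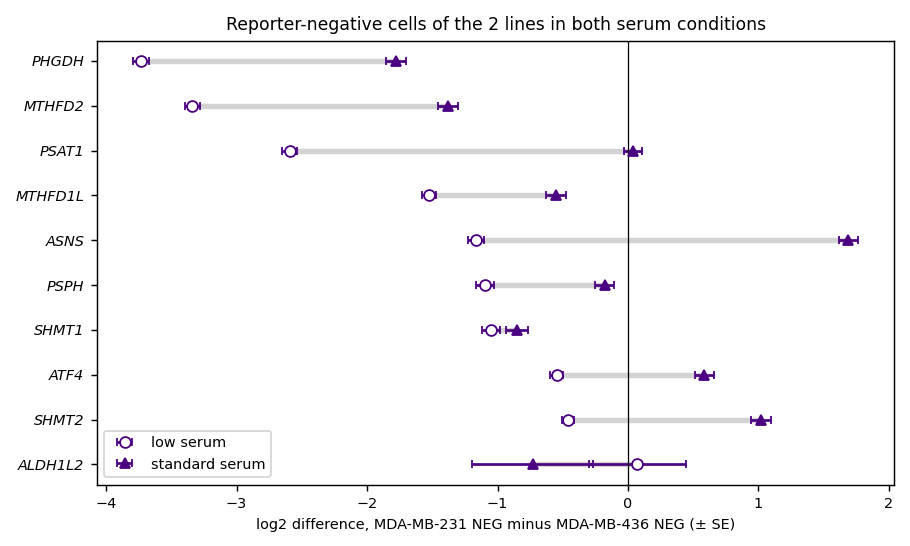
Log2 difference (± SE) between reporter-negative MDA-MB-231 and MDA-MB-436 cells for each gene, in low serum (open circles) and standard serum (filled triangles), with the 2 values of a gene joined by a grey bar. From low to standard serum *ASNS* passes from -1.16 to 1.69 and *PSAT1* from -2.59 to 0.04, while *SHMT1* stays between -1.05 and -0.85. *ALDH1L2*, at the bottom, is at a few counts in both lines.

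The levels behind this shift lay mostly in MDA-MB-231. In MDA-MB-231 NEG, mean *ASNS* was 31.0 CPM in low serum and 571 CPM in standard serum, a ratio of 18.4, and *PSAT1* was 45.0 and 513 CPM, a ratio of 11.4. *SHMT2* (147 and 741 CPM) and *PHGDH* (39.5 and 198 CPM) had ratios of 5.03 and 5.01. *MTHFD2* had a ratio of 3.83 and *ATF4* itself 2.99, whereas *SHMT1*, the cytosolic enzyme, was at 22.0 and 24.0 CPM, a ratio of 1.09.

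In MDA-MB-436 NEG the same ratios ranged from 0.95 for *SHMT1* to 2.54 for *ASNS*, with *MTHFD2* (392 and 385 CPM) and *MTHFD1L* (142 and 141 CPM) level. The serum tables were scaled separately and differ in library preparation, so that these ratios carry no test. The difference of the line difference between serum conditions was tested in 1 model over all 16 libraries, a comparison chosen after the values were seen. Of the 9 genes, 8 passed the adjusted p, all in the direction of MDA-MB-231 gaining on MDA-MB-436 in standard serum, against 16.8% of all 16490 genes in that direction and 20.7% in the other. Among them 6 were called (*ASNS* 2.84, *PSAT1* 2.62, *MTHFD2* 1.95, *PHGDH* 1.94, *SHMT2* 1.47 and *ATF4* 1.12 on the log2 scale, adjusted p between 6.13e-17 and 1.64e-10), against 11.5% of all genes called and 4.13% called in that direction. The median over the 9 genes was 1.47, beside -0.09 over all genes. *SHMT1* did not pass (log2 difference 0.19, SE 0.104, adjusted p = 0.169) but did so with RLE factors (0.27, adjusted p = 0.0452) and on the TPM scale.

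Within MDA-MB-231 in low serum, 6 of the 10 genes rose by small amounts in reporter-positive cells and none fell. *SHMT2* was at 148 and 146 CPM in NEG and at 181 and 188 CPM in POS (log2 fold change 0.32, SE 0.0496, adjusted p = 8.46e-07). *MTHFD2* went from 39.7 and 37.7 to 46.9 and 50.9 CPM (0.34, SE 0.0595, adjusted p = 1.1e-05), and *PHGDH* from 38.3 and 40.7 to 47.2 and 51.0 CPM (0.31, SE 0.0604, adjusted p = 4.35e-05). In each of these the lowest POS library lay above the highest NEG library. *ASNS* (0.26, adjusted p = 0.00156), *SHMT1* (0.23, adjusted p = 0.0118) and *ATF4* (0.20, adjusted p = 0.000973) also rose, while *PSAT1* (0.07), *PSPH* (0.10) and *MTHFD1L* (0.10) did not pass.

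None of the 10 genes was called at a log2 fold change of at least 1, by edgeR or by DESeq2, against 5.90% of all genes. The 6 increases compare with 19.0% of all genes higher and 19.9% lower at the adjusted p alone. Without single libraries, 3 of the rises kept their direction but missed the adjusted p of 0.05. *ASNS* was at 0.18 (adjusted p = 0.0535) without POS replicate 2, and *ATF4* at 0.17 (0.051) without NEG replicate 1. *SHMT1* was at 0.23 (0.0722), 0.24 (0.052) and 0.20 (0.0766) without NEG replicate 1, NEG replicate 2 and POS replicate 1. On the log2(TPM + 1) scale, where the median of all genes moved to -0.18, none of the 10 genes passed and *ATF4* turned to -0.00262. Relative to that median, the median of the 10 genes was 0.19 on the TPM scale and 0.23 on the CPM scale.

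In standard serum MDA-MB-231 the pattern was not the same. *PSAT1* fell, from 519 and 508 CPM in NEG to 391 and 369 CPM in POS (log2 fold change -0.43, SE 0.0704, adjusted p = 8.88e-05). The 40 nearest expressed genes on chromosome 9 had a median of -0.31, with 28 below 0, and the part of their shift in the value of *PSAT1* was not tested. *PSPH*, which catalyses the step after PSAT1, rose from 75.1 and 74.6 to 91.2 and 85.9 CPM (0.24, SE 0.0742, adjusted p = 0.0166). The rise of *PSPH* had an adjusted p of 0.102 without NEG replicate 1, 0.111 without NEG replicate 2 and 0.113 without POS replicate 1. A near-identical pseudogene, *PSPHP1*, had up to 367 counts in a library, and reads may be split between the copies. The other 8 genes did not pass, with log2 fold changes from -0.75 (*ALDH1L2*) to 0.17 (*ASNS*, which passed on the log2(TPM + 1) scale at 0.20, adjusted p = 0.0267), and 0 of 10 were called by either tool, against 7.69% of all genes. At the adjusted p alone, 1 gene higher and 1 lower compare with 16.8% and 16.2% of all genes, and 4 of the 10 had an unadjusted p under 0.05.

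MDA-MB-436 in low serum showed mostly decreases among the 9 genes. *PSAT1* fell from 267 and 276 CPM in NEG to 192 and 179 CPM in POS (log2 fold change -0.55, SE 0.0522, adjusted p = 7.64e-12). *MTHFD2* fell from 388 and 396 to 298 and 286 CPM (-0.42, SE 0.0491, adjusted p = 1.35e-09), and *MTHFD1L* (-0.29), *SHMT2* (-0.26) and *ATF4* (318 and 331 to 274 and 266 CPM, -0.26, adjusted p = 1.19e-05) fell by less. For all 5 genes the POS and NEG libraries did not overlap. *ASNS* was the exception that rose, from 69.0 and 70.2 to 92.0 and 93.8 CPM (0.42, SE 0.0577, adjusted p = 6.78e-08). Its 40 nearest expressed genes on chromosome 7 had a median of 0.86, with 37 above 0. The part of their shift in the rise of *ASNS* was not tested. On the log2(TPM + 1) scale *ASNS* was at 0.17 and did not pass (adjusted p = 0.25).

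*PHGDH* did not pass (-0.11, adjusted p = 0.0612) but did so with DESeq2 and without several single libraries. At the adjusted p alone, 1 gene was higher and 5 lower, against 26.6% and 25.3% of all genes, and 0 of 9 were called by either tool, against 10.5%. The median over the 9 genes was -0.26, beside 0.01 over all genes. On the log2(TPM + 1) scale it was -0.51, beside -0.22 over all genes, and 7 of the 9 were lower, with *PHGDH* (-0.36, adjusted p = 0.004) and *PSPH* (-0.33, adjusted p = 0.0136) added.

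In standard serum MDA-MB-436 *MTHFD2*, *SHMT2* and *MTHFD1L* rose. *MTHFD2* rose from 399 and 372 CPM in NEG to 575 and 525 CPM in POS (log2 fold change 0.51, SE 0.0734, adjusted p = 1.39e-05), *SHMT2* from 376 and 354 to 447 and 463 CPM (0.32, SE 0.0742, adjusted p = 0.00168), and *MTHFD1L* from 143 and 139 to 169 and 162 CPM (0.23, SE 0.0738, adjusted p = 0.0153). The last of these had an adjusted p of 0.0602 without NEG replicate 1 and 0.124 without NEG replicate 2. Around *MTHFD1L*, the 40 nearest expressed genes on chromosome 6 had a median of 0.37, with 28 above 0. The part of their shift in the value of *MTHFD1L* was not tested. *PSPH* rose from 84.4 and 85.0 to 102 and 108 CPM (0.31, adjusted p = 0.00201). *ATF4*, at 450 and 437 against 448 and 488 CPM, overlapped between the groups (0.08, SE 0.0739, adjusted p = 0.416), and so did *PHGDH*. On the log2(TPM + 1) scale *ATF4* passed (0.17, adjusted p = 0.0473). *PSAT1* (-0.17, adjusted p = 0.0585) passed with DESeq2 (0.0208). Of the 9 genes, 5 passed the adjusted p alone, all higher, against 26.1% of all genes higher and 23.4% lower.

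**Figure D3:**
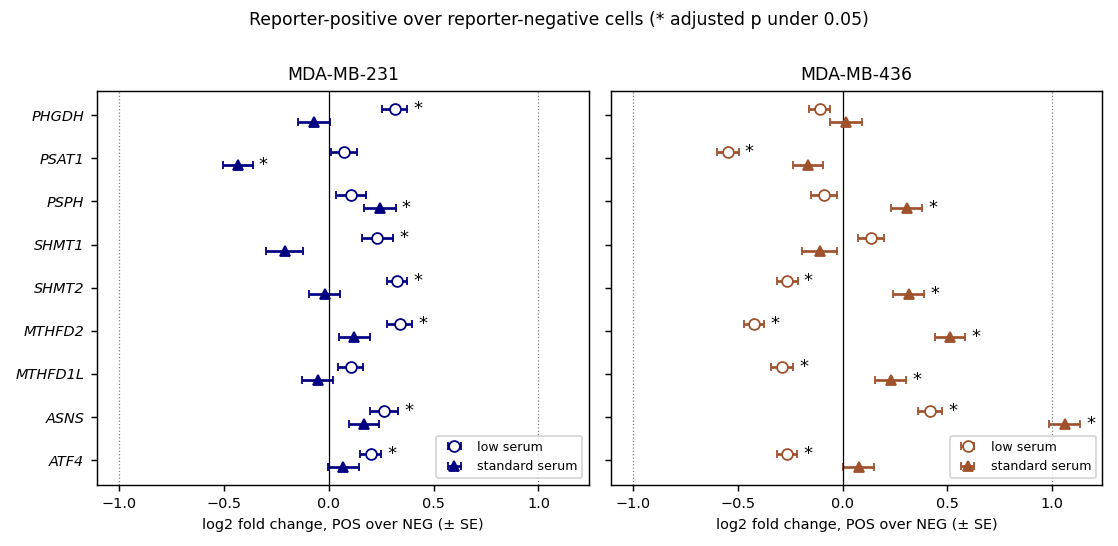
Log2 fold change of POS over NEG cells (± SE) for the 9 genes other than *ALDH1L2*, in MDA-MB-231 (left) and MDA-MB-436 (right), in low serum (open circles) and standard serum (filled triangles). An asterisk marks an adjusted p under 0.05 and dotted lines an absolute log2 fold change of 1. In MDA-MB-436, *MTHFD2*, *SHMT2* and *MTHFD1L* lie below 0 in low serum and above 0 in standard serum, and *ASNS* in standard serum is the only value past 1.

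*ASNS* (ENSG00000070669, chromosome 7, 97480989 to 97501854) was the only one of the 9 genes called in a reporter comparison. It rose from 181 and 173 CPM to 371 and 367 CPM in standard serum MDA-MB-436, 2.09-fold (log2 fold change 1.06, SE 0.0734, adjusted p = 1.51e-09), 1 gene of 9 against 12.5% of all genes. Genes around it moved in the same way. Of the 40 nearest expressed genes on chromosome 7, 20 on either side, 36 were higher in MDA-MB-436 POS in standard serum, with a median log2 fold change of 0.90, and 37 in low serum, with a median of 0.86. The difference of *ASNS* from that median was 0.16 in standard serum and -0.45 in low serum.

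Further out, genes 5 to 10 megabases beyond *ASNS* had medians of -0.20 (low serum) and -0.01 (standard serum), whereas genes 10 to 20 megabases before it had medians of 1.01 and 1.57 (13 genes). In MDA-MB-231 the 40 neighbours had medians of -0.00412 (low serum) and -0.0143 (standard serum). Around the other members in MDA-MB-436, the medians ranged from -0.22 to 0.14 in low serum and from -0.16 to 0.37 in standard serum, and around *ALDH1L2* they were -0.10 and -0.0038. In MDA-MB-231, the neighbours of *SHMT1* on chromosome 17 had medians of 0.56 and 0.58, above the log2 fold changes of *SHMT1* itself. The part of the surrounding genes' shift in the value of *ASNS* was not tested.

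**Figure D4:**
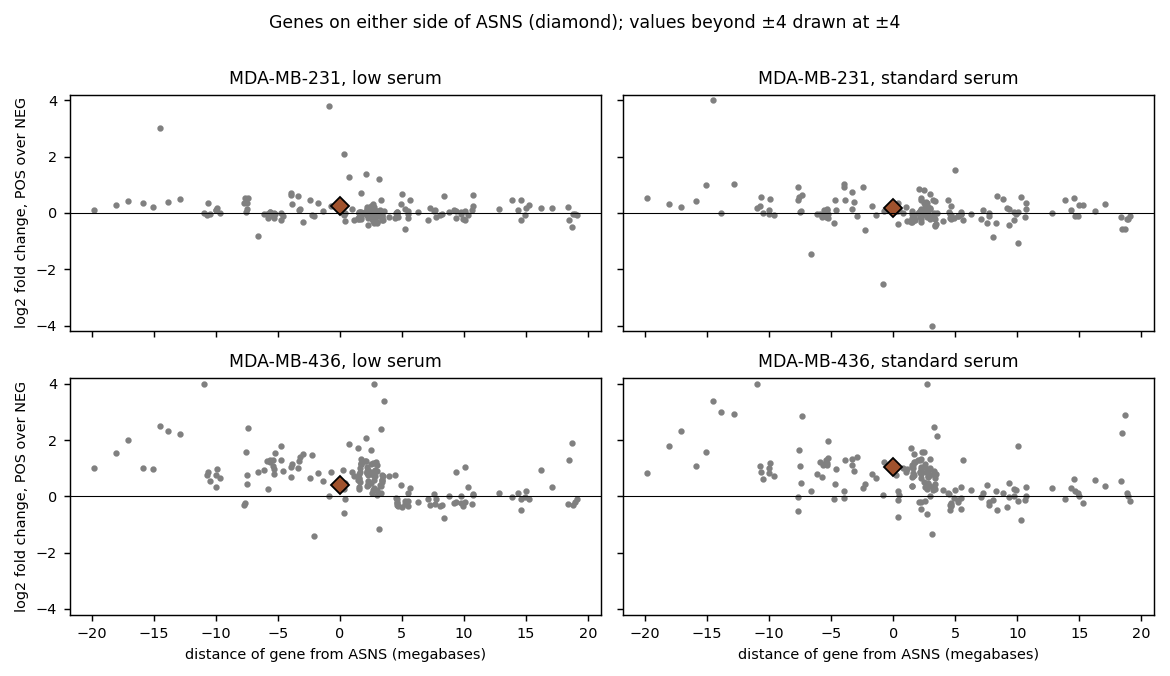
Log2 fold change of POS over NEG cells for expressed genes within 20 megabases of *ASNS* on chromosome 7, by distance from its start, for both lines and serum conditions, with *ASNS* as a diamond. In MDA-MB-436, 85 of 96 genes within 5 megabases lie above 0 in low serum, as do 79 of 95 in standard serum, and the 22 genes 5 to 10 megabases beyond it, on the right, have 6 and 11 above 0. The 13 genes 10 to 20 megabases before it, on the left, all lie above 0 in MDA-MB-436, as do 10 and 11 of them in MDA-MB-231, where the genes within 5 megabases have 50 of 96 and 46 of 95 above 0. Values past 4 in size are drawn at 4.

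The reporter responses of the lines, meaning their log2 fold changes of POS over NEG, were then compared directly. In low serum, the response of MDA-MB-231 exceeded that of MDA-MB-436 for 6 of the 9 genes, *MTHFD2* (difference of log2 fold changes 0.76, SE 0.0772, adjusted p = 6.82e-11), *PSAT1* (0.62), *SHMT2* (0.59), *ATF4* (0.46), *PHGDH* (0.42) and *MTHFD1L* (0.39), with none in the other direction. Among all genes, 21.1% passed in that direction and 24.6% in the other, and none of the 9 reached a difference of 1 with either tool, against 11.7% of all genes. All 6 kept their direction and passed on the TPM scale too.

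In standard serum the sign was opposite for 4 of these genes. *MTHFD2* (-0.39, adjusted p = 0.00546), *SHMT2* (-0.34), *MTHFD1L* (-0.28) and *PSAT1* (-0.27, adjusted p = 0.0373) had the larger response in MDA-MB-436, or in the case of *PSAT1* the smaller decrease. *ASNS* was at -0.89 (SE 0.103, adjusted p = 1.65e-06), after -0.16 in low serum (adjusted p = 0.154), where it had not passed. The 40 genes nearest *ASNS* had standard serum medians of 0.90 in MDA-MB-436 and -0.0143 in MDA-MB-231. The part of their shift in this difference of *ASNS* was not tested. The 5 genes of 9 that passed stand against 22.4% of all genes in that direction and 18.8% in the other. None of the 9 reached 1 with either tool, against 13.8%. Of these, 3 missed the adjusted p of 0.05 when single libraries were left out, with differences that stayed between -0.33 and -0.22. *SHMT2* did so without MDA-MB-231 NEG replicate 1, MDA-MB-231 POS replicate 2 or MDA-MB-436 NEG replicate 2 (adjusted p up to 0.0797), *MTHFD1L* without any of these or MDA-MB-436 NEG replicate 1 (up to 0.219), and *PSAT1* without any of these 4 or MDA-MB-231 NEG replicate 2 (up to 0.144). *MTHFD1L* also missed it with DESeq2 (0.0619), and *MTHFD1L* and *PSAT1* with all biotypes (0.0662 and 0.0822).

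Between serum conditions, the reporter response of MDA-MB-436 was more positive in standard serum for 7 of the 9 genes, led by *MTHFD2* (difference 0.94, SE 0.0882, adjusted p = 2.01e-08), *ASNS* (0.64), *SHMT2* (0.58) and *MTHFD1L* (0.52). *PSPH* (0.40), *PSAT1* (0.38) and *ATF4* (0.34) followed, and *PHGDH* and *SHMT1* did not pass. Of all genes, 10.7% passed in that direction and 10.2% in the other. None of the 9 was called by either tool, against 2.95% of all genes. On the log2(TPM + 1) scale, where the median of all genes moved to 0.29, 8 of the 9 passed, *PHGDH* included (0.47, adjusted p = 0.00417), and the median of the 9 was 0.73, which is 0.44 relative to all genes.

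In MDA-MB-231 the response was less positive in standard serum for *PSAT1* (-0.53, SE 0.094, adjusted p = 0.000564), *SHMT1* (-0.46), *PHGDH* (-0.41) and *SHMT2* (-0.37) on the CPM scale, 4 of 10 against 5.49% of all genes in that direction and 3.37% in the other, with 0 called against 1.52%. On the TPM scale, where the median of all genes moved to 0.20, no member passed in that direction, and the median of the 10 genes was -0.17 relative to all genes, compared with -0.20 on the CPM scale. *PHGDH* had an adjusted p of 0.091 without low serum NEG replicate 1 and 0.0911 without low serum POS replicate 2, and *SHMT2* had 0.054 without low serum NEG replicate 2.

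The wider ATF4 response was read from a list of 39 amino acid response targets, 32 of them not among the 10 genes and all 32 tested. In MDA-MB-231 POS cells 20 rose and 3 fell in low serum (median 0.27, beside -0.01 over all genes) and 14 rose and 3 fell in standard serum (median 0.16, beside 0). Of all genes in low serum 19.0% rose and 19.9% fell, and in standard serum 16.8% and 16.2%. *DDIT4*, an inhibitor of mTORC1 signalling, was at 104 and 105 CPM in NEG and 249 and 260 CPM in POS in low serum (log2 fold change 1.28, SE 0.0509, adjusted p = 2.13e-23). *GDF15*, a stress-induced cytokine, rose in both serum conditions (1.09 and 1.06, adjusted p = 2.94e-15 and 0.0238).

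In MDA-MB-436 POS cells, 8 of the 32 rose and 14 fell in low serum (median -0.20), and 17 rose and 4 fell in standard serum (median 0.27). The share that rose in low serum was about that of all genes, of which 26.6% rose and 25.3% fell, with 26.1% and 23.4% in standard serum. *NUPR1*, a small stress-response protein, rose in both, from 3.14 and 2.93 to 8.87 and 8.10 CPM in low serum (1.48, adjusted p = 3.9e-12) and by 1.38 in standard serum. *PPP1R15A*, the phosphatase subunit that reverses eIF2α phosphorylation, was at 0.03 in low serum (adjusted p = 0.648) and rose in standard serum, from 141 and 149 to 305 and 326 CPM (1.12, adjusted p = 5.41e-10). *DDIT4* fell there from 268 and 284 to 103 and 125 CPM (-1.27, adjusted p = 1.85e-09), whereas in standard serum MDA-MB-231 it rose from 350 and 372 to 652 and 640 CPM (0.84, adjusted p = 6.39e-07).

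Between the NEG cells of the lines in low serum, 24 of the 32 targets were lower in MDA-MB-231 and 7 higher (median -0.91, with 14 called lower and 3 higher), against 39.6% of all genes in either direction. *TRIB3*, a pseudokinase that dampens the ATF4 response, was at 37.3 and 38.3 against 202 and 211 CPM (-2.45, SE 0.056, adjusted p = 2.13e-33). *ATF3* (-3.47), *CEBPB* (-2.69) and *STC2*, a secreted glycoprotein (-7.39), were lower as well. In standard serum 16 of the 32 were higher and 13 lower (median 0.19, beside -0.09 over all genes), against 37.3% and 41.4% of all genes, with *CTH*, which releases cysteine from cystathionine, at 91.1 and 86.6 against 4.21 and 4.69 CPM (4.32, adjusted p = 2.65e-17). The change of the line difference between serum conditions passed for 25 of the 32 in the direction of MDA-MB-231 and for 4 in the other (median 1.11), against 16.8% and 20.7% of all genes.

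Cytosolic aminoacyl-tRNA synthetases, which charge tRNAs with amino acids and include ATF4 targets, were counted in the same way. In low serum 12 of 20 were lower in MDA-MB-231 NEG than in MDA-MB-436 NEG and 6 higher (median -0.37), against 39.6% of all genes each way, with *WARS1* at -1.74 and *YARS1* at -1.29. In standard serum 11 were higher and 5 lower (median 0.54), against 37.3% and 41.4% of all genes, with *SARS1*, at 880 and 842 against 214 and 203 CPM, 4.13-fold higher (2.05, adjusted p = 2.2e-14) and *GARS1* at 1.62. The change between serum conditions passed for 14 of the 20 towards MDA-MB-231 and for 2 in the other direction (median 0.78), against 16.8% and 20.7% of all genes.

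**Figure D5:**
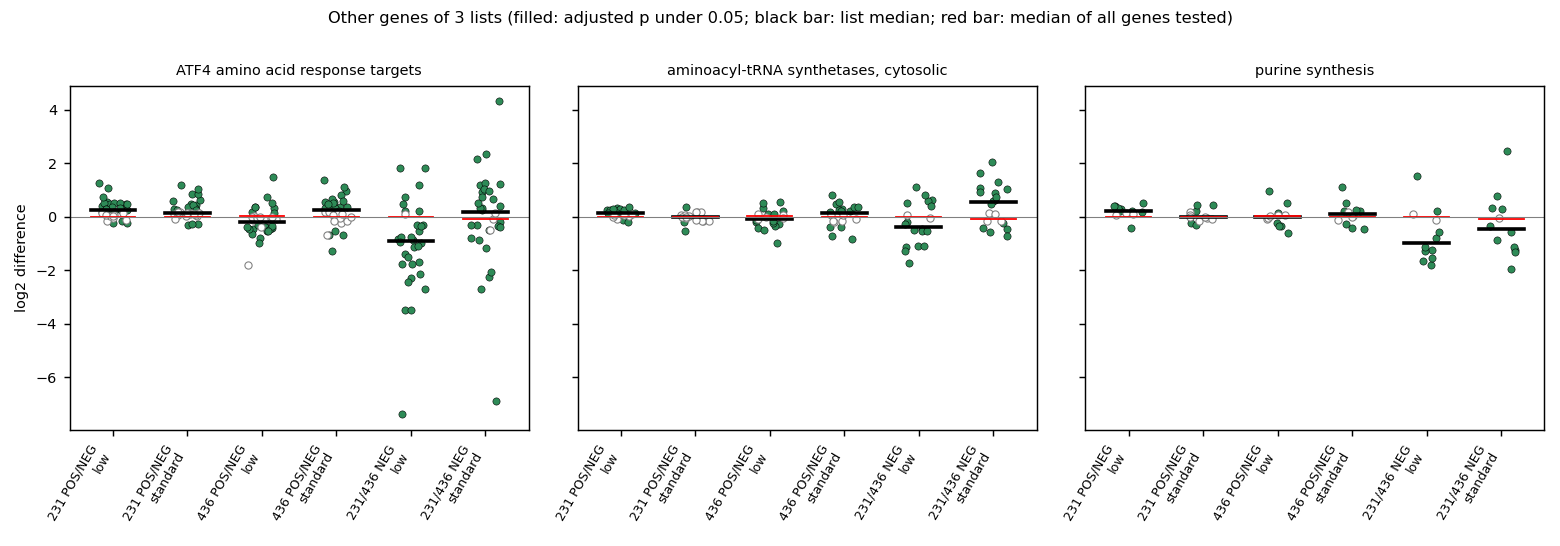
Log2 differences of the genes of 3 lists that are not among the 10 genes, in the reporter comparisons of each line and between the NEG cells of the lines, in low and standard serum. Filled points passed an adjusted p of 0.05, black bars are list medians and red bars the median of all genes tested. For the ATF4 targets and the synthetases the median lies below all genes between the lines in low serum (-0.91 and -0.37) and above them in standard serum (0.19 and 0.54).

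Kinases and factors that act on eIF2 and on ATF4 were also counted. Of 12 such genes, 7 were lower and 4 higher in MDA-MB-231 NEG in low serum (median -0.36), and 8 lower and 4 higher in standard serum (median -0.28). All genes were 39.6% lower and 39.6% higher in low serum and 41.4% lower and 37.3% higher in standard serum, so that the counts of higher genes lay near those shares. *EIF2AK1*, the haem-regulated eIF2 kinase, was lower in MDA-MB-231 in both (-1.42 and -1.34). In the reporter comparisons of MDA-MB-436, 2 rose and 6 fell in low serum and 3 rose and 7 fell in standard serum, against 26.6% of all genes rising and 25.3% falling, then 26.1% and 23.4%.

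Among the other 16 folate enzymes and transporters, *SLC19A1*, the reduced folate carrier, separated the lines. It had at most 1 count in each standard serum MDA-MB-231 library, where MDA-MB-436 NEG was at least 238-fold higher, and was at 0.074 and 0.189 against 35.0 and 39.8 CPM in low serum NEG cells (log2 difference -8.11, adjusted p = 1.71e-32). *ALDH1L1*, the cytosolic counterpart of *ALDH1L2*, was lower in MDA-MB-436 POS than in NEG, where *ALDH1L2* was higher. It held 0 and 2 counts in low serum POS libraries and 2 and 0 in standard serum POS libraries, at least 6.67-fold and 6.11-fold lower than in NEG. The level in MDA-MB-436 NEG was itself near the edge of detection, with means of 0.706 CPM in low serum and 0.422 CPM in standard serum. In MDA-MB-231 *ALDH1L1* was present and rose in POS cells in standard serum, from 7.36 and 6.62 to 24.4 and 22.8 CPM (1.75, adjusted p = 1.6e-08).

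Over these 16 folate enzymes and transporters, 7 genes were higher and 4 lower in MDA-MB-231 POS in low serum, against 19.0% and 19.9% of all genes, and in standard serum 1 was higher and 5 were lower, against 16.8% and 16.2%. In MDA-MB-436 POS, 4 were higher and 7 lower in low serum and again in standard serum, where the genes that were higher lay near the share of all genes (26.6% higher and 25.3% lower, then 26.1% and 23.4%).

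Of the other 19 genes of serine and glycine metabolism and transport, the test covered 18 in low serum and 17 in standard. *GLDC*, the glycine decarboxylase, was at 0.259 and 0.341 CPM in MDA-MB-231 NEG and 22.1 and 21.1 CPM in MDA-MB-436 NEG in low serum (-6.15, adjusted p = 5.35e-29), and in standard serum MDA-MB-436 NEG was at least 234-fold higher. *SFXN1*, the mitochondrial serine carrier, was lower in MDA-MB-231 NEG in both serum conditions (-1.97 and -1.77), and *SLC38A2*, an amino acid transporter, was higher (1.81 and 2.16). *SFXN3* was higher in low serum (2.06). In low serum NEG cells, 9 of 18 were higher in MDA-MB-231 and 6 lower (median 0.15), against 39.6% of all genes each way. In standard serum 8 of 17 were higher and 8 lower (median -0.08), against 37.3% and 41.4% of all genes. Between serum conditions, 5 of 18 changed towards MDA-MB-231 and 5 the other way (median -0.37), against 16.8% and 20.7% of all genes. In MDA-MB-436 POS cells in standard serum, 7 of 17 rose and 1 fell, against 26.1% and 23.4% of all genes, with *SLC25A38*, a mitochondrial glycine carrier, at 24.1 and 24.7 against 51.9 and 50.8 CPM (1.07, adjusted p = 1.32e-08). In low serum 4 of 18 rose and 5 fell, near the 26.6% and 25.3% of all genes.

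In the methionine cycle, which takes up the methyl group of folate, *MTAP* was absent from MDA-MB-231 at this depth, with at most 1 count in each library, and MDA-MB-436 NEG was at least 334-fold higher in low serum and 283-fold higher in standard serum. *MTAP* lies beside *CDKN2A* on chromosome 9, which was also near 0 in MDA-MB-231. *MTRR*, which reactivates methionine synthase, fell in MDA-MB-436 POS from 138 and 139 to 46.3 and 48.0 CPM in low serum (-1.56, adjusted p = 7.16e-25) and by 1.15 on the log2 scale in standard serum. Of its 40 neighbours on chromosome 5, 39 were lower in each serum condition, with medians of -1.50 and -1.44.

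Purine synthesis is a consumer of formate. In low serum 8 of 12 genes rose and 1 fell in MDA-MB-231 POS (median 0.21), and 3 rose and 4 fell in MDA-MB-436 POS (median 0.0046). All genes stood at 19.0% higher and 19.9% lower in MDA-MB-231, and at 26.6% and 25.3% in MDA-MB-436, near the counts there. In standard serum 3 of 12 rose and 2 fell in MDA-MB-231 POS (median -0.02), against 16.8% and 16.2% of all genes. In MDA-MB-436 POS, 5 rose and 3 fell in standard serum (median 0.10), against 26.1% and 23.4%. Between the NEG cells in low serum 8 were lower and 2 higher in MDA-MB-231 (median -0.96), against 39.6% of all genes each way, with *PPAT*, the first committed enzyme, at 33.7 and 33.5 against 115 and 117 CPM (-1.78, adjusted p = 1.72e-27). *IMPDH2*, the guanine nucleotide branch enzyme, went against this, at 213 and 227 against 76.6 and 76.7 CPM (1.52, adjusted p = 1.1e-26). In standard serum NEG cells, 4 were higher in MDA-MB-231 and 7 lower (median -0.47), against 37.3% and 41.4% of all genes.

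Genes with a pattern most like that of *ALDH1L2* were found by Pearson's r of log2(CPM + 0.5), centred within each serum condition, over the 16 libraries and among 12520 genes (mean CPM of 1 or more in each serum condition). *ZNF655* (r = 0.99), *TPM1* (0.99), *RBMS1* (0.98), *CNOT10* (0.98) and *MCM7* (0.98) ranked first, as a description with no test over libraries that share line, state and serum. *TPM1*, an actin-binding tropomyosin, was at 201 and 208 CPM in those low serum libraries and 246 and 252 CPM in the standard serum ones, and at 56.8 to 86.0 CPM in the other 12. *ZNF655* and *MCM7*, a subunit of the replicative helicase, lie on chromosome 7 near *ASNS*, and the 40 genes around each had medians of 0.83 (low serum) and 0.88 (standard serum) in MDA-MB-436 POS. The other members of the serine and folate set had r from -0.36 (*ATF4* and *SHMT2*) to 0.58 (*SHMT1*).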

How the data were processed

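The deposited tables give unnormalized counts of read pairs, which the authors obtained by removing ribosomal reads with Bowtie, aligning to hg19 with STAR (2.6.1a per the labels) and counting on Gencode v19. The authors also deposited TPM values, whose calculation is not stated. All columns were mapped to samples. Symbols came from Gencode v44 lifted to GRCh37.

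Protein-coding genes with at least 10 summed counts were fitted with edgeR 4.0.16 (TMM, robust quasi-likelihood, Benjamini-Hochberg adjustment over all genes tested) in R 4.3.3, with 4 groups per serum condition or 8 groups over 16 libraries for differences between serum conditions. Calls needed an adjusted p under 0.05 and a log2 fold change of 1 or more in size. Alternatives were DESeq2 1.42.0, RLE factors, other filters, all biotypes, limma 3.58.1 on log2 TPM with pseudocounts of 1 and 0.1, a replicate block, no fold threshold, and leaving out each library. A crossed block and the serum comparison of NEG cells were added after seeing the data. Scripts were tested on simulated data. A floor of 3 counts per library was used for lower bounds, which cover counting error only.

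The members, lists and tests were chosen with earlier results of these data known. The genes named are the members, up to 4 called genes per list and comparison by adjusted p (a subset is printed), markers, and the 5 nearest patterns to *ALDH1L2*. The neighbours along the chromosome were examined after the values were seen. The design text calls the replicates biological, and p-values measure the spread between these 2 cultures or preparations.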

Additional observations from a re-analysis of the deposited data

Results flagged for a closer look

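The reporter response differed between the lines, by the interaction of edgeR's quasi-likelihood model, for 6 genes in low serum: *PHGDH* by 0.42, *PSAT1* by 0.62, *SHMT2* by 0.59, *MTHFD2* by 0.76, *MTHFD1L* by 0.39 and *ATF4* by 0.46 on the log2 scale, MDA-MB-231 minus MDA-MB-436. In standard serum 5 genes differed, with *PSAT1* at -0.27, *SHMT2* at -0.34, *MTHFD2* at -0.39, *MTHFD1L* at -0.28 and *ASNS* at -0.89. Genes around *ASNS* on chromosome 7 were also shifted in MDA-MB-436 POS, and the part of this in its value was not tested.

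The reporter response also differed between serum conditions, standard minus low, within each line. In MDA-MB-231 the differences were -0.41 for *PHGDH*, -0.53 for *PSAT1*, -0.46 for *SHMT1* and -0.37 for *SHMT2*. In MDA-MB-436 they were 0.38 for *PSAT1*, 0.40 for *PSPH*, 0.58 for *SHMT2*, 0.94 for *MTHFD2*, 0.52 for *MTHFD1L*, 0.64 for *ASNS* and 0.34 for *ATF4*.

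The difference between the NEG cells of the lines changed between serum conditions for 8 genes, by 1.94 for *PHGDH*, 2.62 for *PSAT1*, 0.91 for *PSPH*, 1.47 for *SHMT2*, 1.95 for *MTHFD2*, 0.96 for *MTHFD1L*, 2.84 for *ASNS* and 1.12 for *ATF4*. Serum, days in culture and library preparation cannot be told apart in these comparisons, nor can cell line and medium. The same holds for reporter state and other differences between the sorted pools.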

How the results depend on the processing

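With 2 libraries per group, small differences rest on few degrees of freedom. Of 1865 tests of single members under alternatives, 1763 kept their direction and side of the adjusted p of 0.05, 55 no longer passed, 45 newly passed and 2 turned. The 2 that turned were *ATF4* in low serum MDA-MB-231, at -0.00262 and -0.00265 with TPM pseudocounts of 1 and 0.1. In low serum the TPM scale moved the median of all genes to -0.18 in MDA-MB-231, -0.22 in MDA-MB-436 and -0.35 between NEG cells. The share of all calls that were higher went from 59.4% to 46.2%, from 61.8% to 40.7% and from 48.9% to 30.5%, and for the serum differences from 61.8% to 82.6% (MDA-MB-231), from 30.2% to 72.8% (MDA-MB-436) and from 36.1% to 71.7% (NEG cells).

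With limma on log2(TPM + 1) the genes called were 303 in MDA-MB-231 and 794 in MDA-MB-436 in low serum, 520 and 937 in standard serum, 1120 for the difference between lines in low serum, 155 for the serum difference in MDA-MB-231 and 1223 for that between NEG cells, against 948, 1694, 1185, 1932, 1884, 251 and 1889. With both pseudocounts, 1 member (*MTHFD2*) was called for the serum difference in MDA-MB-436, against 0. With all biotypes, 10397 genes were called between NEG cells in low serum, against 6732. Without a fold threshold the members passing were 6, 6 and 6 in low serum (MDA-MB-231, MDA-MB-436 and their difference), 2, 5 and 5 in standard serum, 8 between NEG cells in standard serum, and 4 and 7 for the serum differences of MDA-MB-231 and MDA-MB-436. Leaving out each library in turn, members called ranged from 3 to 4 between NEG cells in standard serum and from 6 to 7 for their serum difference.

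The labels tie replicate numbers to no shared batch, and for this reason the numbers were not treated as pairs. Correlations of same-numbered deviations ran from -0.21 to 0.07 in low serum. In standard serum they ran from -0.05 to 0.39, and 5 of 6 were above 0.1. Fitting the replicate number as a block, 926, 1667, 1170 and 1938 genes were called in the reporter comparisons (MDA-MB-231 and MDA-MB-436 in low, then standard serum) and the number of members called was 0, 0, 0 and 1, as without it. At the adjusted p alone this block added *ASNS* in MDA-MB-231 (0.0383) and *PSAT1* in MDA-MB-436 (0.0253), both in standard serum. A crossed pairing, added after seeing the data, gave 1695 calls in low serum MDA-MB-436.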
